A study of Mus musculus with 6 samples.

Results

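Complex I genes were examined in RNA-seq of mouse dorsal skin as the 48 rows whose gene symbol begins with Nduf, of 21959 genes in the deposited table. By textbook role, 7 encode nuclear core subunits, 30 encode accessory subunits and 8 (Ndufaf1 to Ndufaf8) encode assembly factors. The other 3 carry the name without being counted as subunits, namely Ndufa4, its paralog Ndufa4l2, and Ndufb11b. The skin came from wild-type male C57BL/6 mice that were shaved in the resting phase of the hair cycle (telogen) at 7 weeks of age. The vehicle group received 30% dipropylene glycol in 70% water and the rebamipide group 3% rebamipide, each applied to the shaved back once a day for 7 days. Rebamipide is a drug used to protect the gastric mucosa, and the study tested it for hair regrowth. Each group had 3 mice with 1 poly-A library per mouse. The study describes the piece sequenced as full-thickness skin, a tissue that mixes epidermis, hair follicles, fibroblasts, fat and any attached muscle. In such bulk tissue, more cells of a type and more RNA per cell cannot be told apart.

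Complex I (NADH:ubiquinone oxidoreductase) is the entry point of the mitochondrial respiratory chain. It takes electrons from NADH, passes them along iron-sulfur clusters to ubiquinone and pumps protons across the inner membrane. The core subunits do this chemistry and are shared with bacteria; those of the peripheral arm are encoded in the nucleus and those of the membrane arm in mitochondrial DNA. Accessory subunits surround the core, and assembly factors help to join the parts without staying in the finished enzyme. Nuclear respiratory genes are known to be read out by factors that include NRF1, GABP, YY1 and the estrogen-related receptors. Brown fat, muscle and other tissues with a high oxidative load hold much of the complex.

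Promoter sequences were searched because the members moved together. A window from 250 bases before the start to 50 bases after it was found for 41 of the 48 members (43 windows) in RefSeq (build GRCm38.p6). The letters searched, on both strands, were AAGATGG (the core of a YY1 site), GCATGCG (NRF1 core), CCGGAAG (an ETS site as bound by GABP) and AAGGTCA (an estrogen-related receptor half-site). AAGATGG stood in 7 of 35 subunit windows (20.0%), against 6.34% of all 32851 promoter windows, and all 7 matches lay on the sense strand, 22 to 38 bases after the start. The 7 stretches of 22 bases are shown to compare these matches, with the motif in capitals. Their genes were called higher, as were 36 of all 37 subunits.
Ndufa3: cgccaagaacAAGATGGccggg
Ndufa9: attgtgggagAAGATGGcggcc
Ndufb8: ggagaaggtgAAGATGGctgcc
Ndufc1: cctgcggaacAAGATGGcgccg
Ndufs4: tgcctacaggAAGATGGcggcg
Ndufs6: ggtcaccggcAAGATGGcggcg
Ndufs7: ggccgaggccAAGATGGcggcg
They lie at chr7:3617385-3617406 (+ strand), chr6:126849104-126849125 (- strand), chr19:44555393-44555414 (- strand), chr3:51408922-51408943 (- strand), chr13:114388048-114388069 (- strand), chr13:73328438-73328459 (- strand) and chr10:80249463-80249484 (+ strand), in that order. In all 7 the motif was followed by c. The letters contain ATG, and whether they hold the start codon was not examined.

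The other motifs were found in fewer subunit windows. GCATGCG stood in 3 of 35 (8.57%, against 3.58% of all windows), CCGGAAG in 4 of 35 (11.4% against 8.86%) and AAGGTCA in 3 of 35 (8.57% against 4.72%). Of 7 assembly factor windows, 2 held GCATGCG, 2 held CCGGAAG, 1 held AAGATGG and 0 held AAGGTCA. The 250 bases before the start are shown for 4 genes that differ in class and in size of change: Ndufb8, the largest rise, with none of the 4 motifs in these bases (its AAGATGG lies after the start); Ndufs3, a core subunit, with CCGGAAG; Ndufa11, one of the smallest rises, and Ndufaf4, an assembly factor that did not pass the test, both with GCATGCG overlapping its own reverse complement (capitals mark the motif).
Ndufb8: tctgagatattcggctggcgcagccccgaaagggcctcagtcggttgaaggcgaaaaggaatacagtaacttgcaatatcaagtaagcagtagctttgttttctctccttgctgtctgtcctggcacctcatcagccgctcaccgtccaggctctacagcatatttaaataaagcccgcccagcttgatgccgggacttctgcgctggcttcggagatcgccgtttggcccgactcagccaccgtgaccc
Ndufs3: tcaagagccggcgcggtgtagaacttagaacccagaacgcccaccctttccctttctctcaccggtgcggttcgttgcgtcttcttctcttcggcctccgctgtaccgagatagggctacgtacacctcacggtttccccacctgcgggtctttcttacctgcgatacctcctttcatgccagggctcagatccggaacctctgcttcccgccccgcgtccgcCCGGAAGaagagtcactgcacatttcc
Ndufa11: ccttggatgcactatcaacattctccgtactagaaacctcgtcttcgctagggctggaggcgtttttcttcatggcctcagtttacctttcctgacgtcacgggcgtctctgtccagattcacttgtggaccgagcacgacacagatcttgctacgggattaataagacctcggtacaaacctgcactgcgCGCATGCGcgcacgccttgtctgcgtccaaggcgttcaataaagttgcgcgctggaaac
Ndufaf4: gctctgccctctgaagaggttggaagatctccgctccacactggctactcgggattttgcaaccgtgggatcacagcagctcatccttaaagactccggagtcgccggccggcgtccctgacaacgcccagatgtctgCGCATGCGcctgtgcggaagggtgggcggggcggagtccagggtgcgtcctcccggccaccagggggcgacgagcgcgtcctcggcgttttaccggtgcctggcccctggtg
These are chr19:44555443-44555692 (- strand), chr2:90904722-90904971 (- strand), chr17:56717512-56717761 (+ strand) and chr4:24897833-24898082 (+ strand). A match of these letters is a description and not a bound site.

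The libraries held 32709801 to 39915276 counted reads. Values are given as CPM, normalised read counts on the usual CPM scale after TMM scaling (a factor that evens out libraries dominated by a few genes), and as log2 fold changes of rebamipide over vehicle with their standard errors. Adjusted p-values are from the quasi-likelihood test of edgeR with Benjamini-Hochberg adjustment over 14875 genes, and a gene is called at an adjusted p under 0.05. Departures from the skin label were seen in every rebamipide library. Ucp1, an uncoupling protein used as a marker of brown fat, had 0 reads in each vehicle library and 81048, 220449 and 150572 reads in the rebamipide libraries. Each Nduf value with rebamipide thus comes from a library that also holds this transcript. Whether it came from other tissue in the sample or arose within the treated skin was not tested. No result below can be given without the rebamipide libraries. In addition, the third rebamipide library held 0 reads of Krt14 and 4 of Krt5, the keratins of basal keratinocytes, where the vehicle libraries held 26099 to 64371 and 50427 to 77535. Its 7 keratinocyte markers summed to 3.70 CPM, against 2641 to 6921 CPM in vehicle and 1968 and 1150 CPM in the other rebamipide libraries, with Krt14 and Krt15 at 0. Counts of called complex I genes are therefore also given without that library. The second rebamipide library also departed from vehicle. Its 5 fibroblast markers summed to 3409 CPM, against 14920 CPM in the first rebamipide library and 11790 to 17290 CPM in vehicle. Leaving out the third library thus does not remove differences in composition.

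Nduf genes were higher in the rebamipide libraries almost without exception. Of 47 members tested, edgeR called 44 higher and 0 lower, against 14.1% of all genes tested that were higher and 6.51% that were lower. Their median log2 fold change was 2.09, a 4.26-fold rise, while the median over all genes was -0.18. With total counts alone as the scale the members' median was 1.46 (2.75-fold) with 40 members higher (8.46% of all genes), the median over all genes was -0.78, and 1258 genes were higher and 3752 lower in all, against 2093 and 968 with TMM. All Nduf reads together took 0.254%, 0.316% and 0.366% of the counts of the 3 vehicle libraries and 0.867%, 1.05% and 1.17% of those with rebamipide.

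The groups were apart gene by gene. In 46 of 47 members the lowest rebamipide CPM exceeded the highest vehicle CPM, which 24.5% of all genes did, and in 44 of 47 this also held for the deposited FPKM, against 13.0% of all genes. By the thresholds the study used (unadjusted p under 0.05 and a log2 fold change above 1), 45 of 47 were higher, against 14.3% of all genes. Among the 1625 other genes that the table annotates to the mitochondrion, 43.1% were higher, with a median log2 fold change of 0.82.

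Single libraries bore on the calls. Without the third rebamipide library, 39 members were higher (28 of 30 accessory genes among them), against 6.60% of all genes, with a median log2 fold change of 1.96. Without the second vehicle or the second rebamipide library edgeR called 0 members in either case, while 45 were higher at an unadjusted p under 0.05 in each. Over all genes edgeR then called 0 and 1, with 4116 and 4062 at an unadjusted p under 0.05. DESeq2 called 44 and 45 in those 2 settings (14.0% and 17.5% of all genes) and limma-voom 18 in each (1.40% and 1.67%), and the median log2 fold changes were 2.10 and 2.09. In all 6 settings that left out 1 library, 46 of 47 members had a positive fold change.

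**Figure D1:**
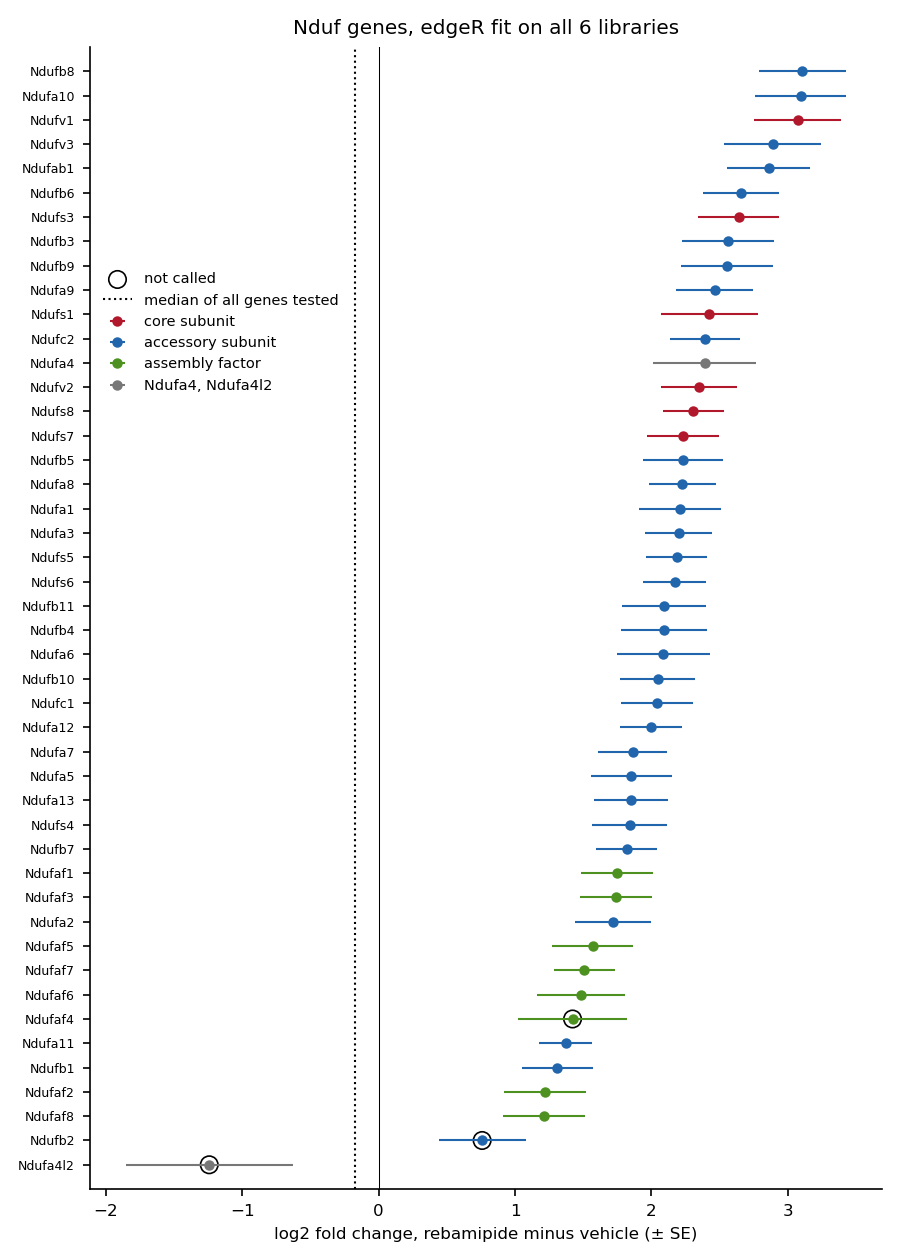
Log2 fold change of 46 tested Nduf genes, rebamipide minus vehicle, with its standard error (bars) from the edgeR fit on 6 libraries, coloured by class; the dotted line is the median of all 14875 genes. Core subunits (red) lie between 2.23 and 3.07, assembly factors (green) between 1.21 and 1.75, and the 3 circled genes were not called.

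Markers of other cell types moved with the treatment. The brown adipocyte list summed to 217.7 to 392 CPM in the vehicle libraries and 4877 to 12590 CPM in the rebamipide libraries, and 6 of its 8 genes were higher. Its member Ucp1 was absent from every vehicle library, as given above. Cidea, a lipid droplet protein of brown fat, was at 15.6, 34.0 and 58.3 CPM in vehicle and 1552, 2985 and 3543 CPM with rebamipide, whereas Elovl3, a fatty acid elongase, had a log2 fold change of -1.45 (SE 0.42, adjusted p = 0.0575).

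The general adipocyte list summed to 1670 to 4973 CPM in vehicle and 12610 to 22450 CPM with rebamipide, with 7 of 10 genes higher. Fabp4 alone was at 5055, 9815 and 10960 CPM with rebamipide. The genes not called, Cfd (log2 fold change 0.34), Lep (-0.53) and Retn (-0.23), overlapped between the groups. The endothelial list lay at 202.7 to 471.4 and 968.7 to 1409 CPM with 3 of 5 higher. Slow skeletal muscle markers summed to 1.88 to 13.2 CPM in vehicle and 256, 113 and 5.19 CPM in rebamipide libraries 1, 2 and 3, with 3 of 5 genes higher. Fibroblast markers (5 genes) summed to 11790 to 17290 CPM in vehicle and 14920, 3409 and 1807 CPM in rebamipide libraries 1, 2 and 3. None of them was called by edgeR, nor any of the fast muscle (7 genes, 5765 to 29810 against 291.1 to 38070 CPM) and keratinocyte (7 genes) markers. Without rebamipide library 3, 5 brown adipocyte, 5 adipocyte, 2 endothelial and 3 slow muscle genes were higher, and 1 keratinocyte gene was lower. The part of the brown adipocyte, adipocyte, endothelial, keratinocyte and fibroblast markers in the rise of the Nduf genes was not tested. For muscle alone a fit was made with the level as a covariate, in which 42 members (fast) and 43 members (slow) were higher, against 9.85% and 12.1% of all genes. Of the 8 assembly factors, 5 (fast) and 6 (slow) were higher in these fits. The slow muscle mean log2(CPM + 0.5) was 0.37, 0.98 and -0.27 in vehicle and 5.61, 4.38 and 0.55 with rebamipide. With 6 libraries and scores from the same counts, these fits cannot tell muscle content and treatment apart.

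**Figure D2:**
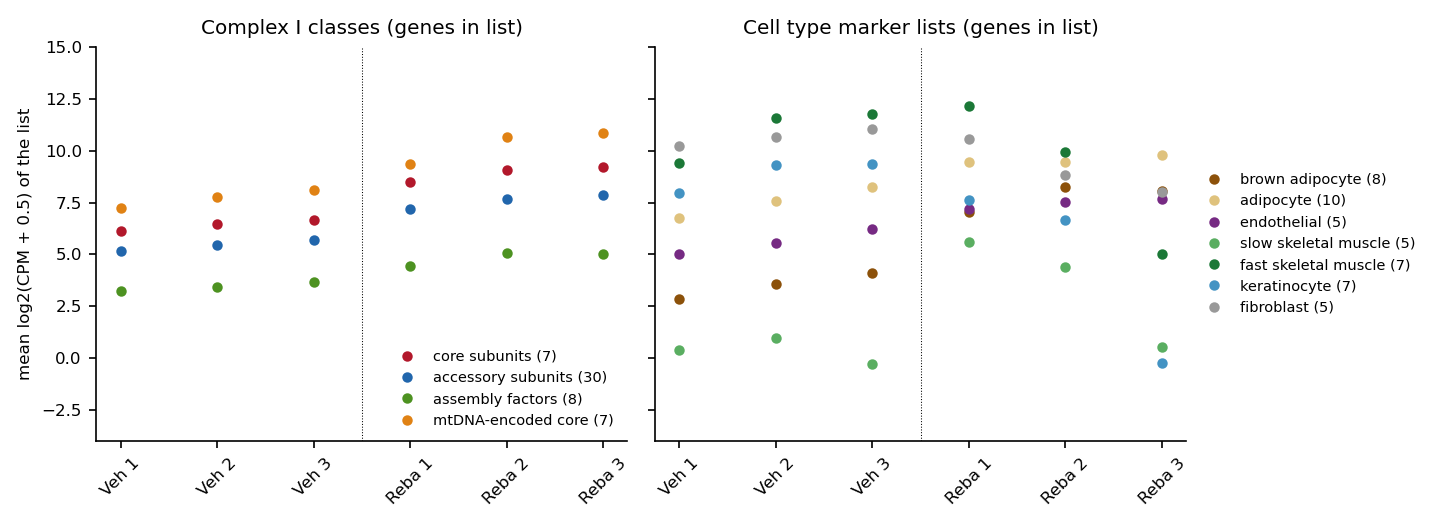
Mean log2(CPM + 0.5) over the genes of each complex I class (left) and of each cell type marker list (right) in every library, 3 vehicle (Veh) and 3 rebamipide (Reba); each point is 1 library and the number of genes is in the legend. Every complex I class and the brown adipocyte, adipocyte and endothelial lists are higher in each rebamipide library than in each vehicle library, and the keratinocyte list is at -0.23 in rebamipide library 3.

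All 7 nuclear core subunits were higher, with a median log2 fold change of 2.43. Ndufv1 holds the flavin that accepts electrons from NADH. Its level was 102, 116 and 130 CPM in the vehicle libraries and 664, 1057 and 1202 CPM in the rebamipide libraries. It was the core gene with the largest fold change (log2 3.07, SE 0.32, adjusted p = 0.00939, edgeR), and its lowest rebamipide library was well above its highest vehicle library.

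Ndufv2 and Ndufs1 complete the core of the NADH-oxidising tip and carry iron-sulfur clusters. Ndufv2 was at 86.0, 105 and 125 CPM in vehicle and 405, 571 and 629 CPM with rebamipide (log2 fold change 2.35, SE 0.28). Ndufs1 was at 86.4, 119 and 136 CPM and at 378, 732 and 724 CPM (2.43, SE 0.36). Neither gene overlapped between groups, and the rebamipide libraries 2 and 3 were close to each other and above library 1 in both.

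Ndufs3, Ndufs7 and Ndufs8 belong to the core of the module that reaches ubiquinone. Ndufs3 was at 57.1, 75.0 and 89.0 CPM in vehicle and 339, 497 and 543 CPM with rebamipide (log2 fold change 2.64, SE 0.30). Ndufs7, which holds the last iron-sulfur cluster before the quinone, had the smallest core fold change, at 24.8, 33.0 and 37.8 CPM against 113, 159 and 177 CPM (2.23, SE 0.26). Ndufs8, also an iron-sulfur protein, was at 46.4, 48.8 and 57.0 CPM and at 201, 260 and 292 CPM (2.31, SE 0.22). All 3 genes were apart between the groups, and the difference between Ndufs7 and Ndufs8 was not tested. The adjusted p-values of the 7 core genes ran from 0.00939 to 0.0115 (edgeR).

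**Figure D3:**
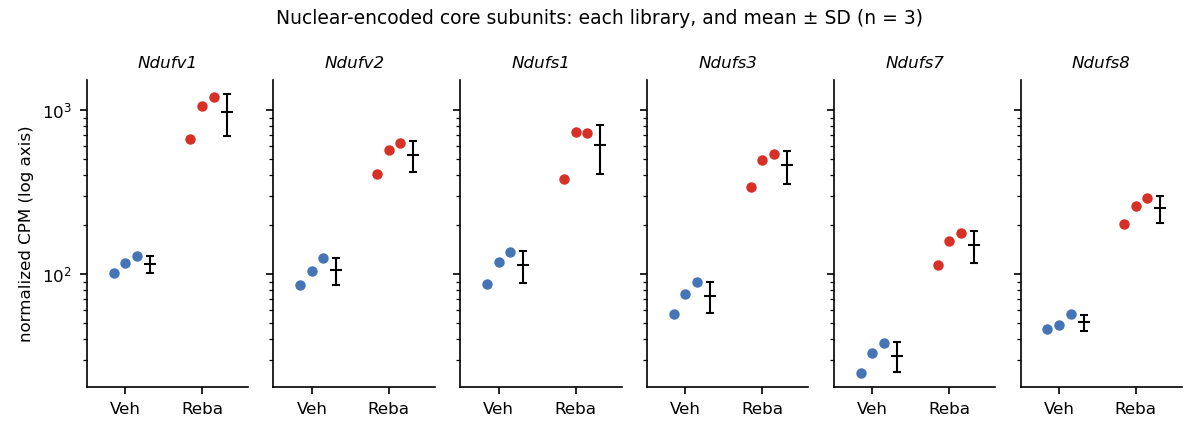
Level of 6 nuclear core subunits in normalized CPM (log axis), each point 1 library (vehicle blue, rebamipide red), with the mean and SD (n = 3) as a bar to the right of each group. In each gene all 3 rebamipide libraries lie above all 3 vehicle libraries, and rebamipide library 1, the leftmost red point, is the lowest of its group.

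The 30 accessory subunits followed with a median log2 fold change of 2.13, and 29 were higher. Ndufb8, in the distal end of the membrane arm, had the largest change of all members. It was at 60.9, 75.1 and 86.7 CPM in vehicle and 438, 709 and 772 CPM with rebamipide (log2 fold change 3.11, SE 0.32, adjusted p = 0.00939). Its annotated span shares 62.0% with the same-strand gene model Gm20538, which had 0 reads in every library.

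Ndufa10, a matrix-side subunit related to nucleoside kinases, was at 100, 114 and 127 CPM in vehicle and 632, 1075 and 1204 CPM with rebamipide (3.09, SE 0.33). Ndufv3, a small protein on the NADH-oxidising tip, was at 33.1, 45.6 and 57.4 CPM and at 220, 370 and 419 CPM (2.89, SE 0.35). Ndufab1 is the mitochondrial acyl carrier protein, which also serves mitochondrial fatty acid synthesis. It was at 20.9, 24.6 and 28.9 CPM in vehicle and 119, 197 and 223 CPM with rebamipide (2.86, SE 0.30). Ndufb6, of the distal arm, was at 32.4, 34.9 and 43.5 CPM and at 167, 250 and 284 CPM (2.66, SE 0.28). These 5 genes and Ndufv1 had the 6 largest fold changes among the members. Their standard errors reflect the spread between libraries that all these genes share, and differences between the genes were not tested.

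At the other end, Ndufa2 (1.72, SE 0.28), Ndufb7 (1.82, SE 0.22), Ndufa11 (1.37, SE 0.19) and Ndufb1 (1.31, SE 0.26) rose least among the called accessory genes. Ndufa11, a membrane-embedded subunit near the joint of the arms, was at 15.2, 17.4 and 20.2 CPM in vehicle and 42.4, 45.4 and 48.9 CPM with rebamipide. Ndufb1 was at 15.5, 21.5 and 27.0 CPM and at 45.7, 52.8 and 60.1 CPM, and 12.0% of its span lies opposite Cpsf2. The groups did not overlap in either gene. Ndufa2 was at 21.9 to 38.4 CPM in vehicle and 82.6 to 122 CPM with rebamipide, and Ndufb7 at 47.8 to 52.7 and 134 to 210 CPM.

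Ndufb2, another small subunit of the distal arm, was the 1 accessory gene that was not called. It was at 4.87, 4.81 and 4.53 CPM in vehicle and 5.37, 8.92 and 9.77 CPM with rebamipide, a log2 fold change of 0.76 (SE 0.32, adjusted p = 0.131, edgeR). Its CPM did not overlap, but the first rebamipide library was only just above the vehicle libraries, and the deposited FPKM overlapped (0.974 to 1.10 against 0.885 to 1.31). Over 37.2% of its span lies the same-strand model Gm42420, with 0 reads everywhere. Ndufb2 also had the lowest FPKM of the 37 subunits, and how reads that fit both models were counted is not given in the sources used here.

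The remaining 20 accessory genes were called higher, with log2 fold changes between those of Ndufb7 and Ndufb6. By position in the enzyme, the medians over core and accessory genes were 2.13 for the 10 genes of the NADH-oxidising module, 2.31 for the 5 of the quinone module, 2.21 for the 10 of the proximal and 2.16 for the 12 of the distal membrane arm. The SD of single genes within a module was 0.33 to 0.66, and differences between modules were not tested. The members lie on 18 chromosomes. Of the members, 18 overlap another gene model; Ndufa13 lies wholly within the same-strand model Yjefn3 and Ndufb9 shares 62.9% of its span with Gm49356, so their values are less certain.

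Assembly factors had smaller fold changes. Of 8, 7 were higher and the median log2 fold change was 1.50, with all 8 between 1.21 and 1.75. Ndufaf1, part of the mitochondrial complex I assembly (MCIA) complex that builds the proximal membrane arm, was at 20.4, 24.4 and 27.0 CPM in vehicle and 57.0, 99.8 and 84.9 CPM with rebamipide (1.75, SE 0.26, adjusted p = 0.0118). Ndufaf3, which acts on the quinone module, was at 5.99, 6.29 and 7.53 CPM and at 16.7, 23.9 and 25.5 CPM (1.74, SE 0.27). In both genes the groups were apart.

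Its partner Ndufaf4 was the assembly factor that was not called. It was at 19.9, 17.9 and 21.7 CPM in vehicle and 25.0, 70.8 and 63.8 CPM with rebamipide, a log2 fold change of 1.42 (SE 0.40, adjusted p = 0.0528, edgeR). The first rebamipide library was close to the vehicle libraries and the other 2 were far above them. DESeq2 called it higher.

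Ndufaf5 and Ndufaf7 modify arginines of core subunits. Ndufaf5 was at 7.37, 11.2 and 13.4 CPM in vehicle and 25.5, 36.0 and 33.5 CPM with rebamipide (1.57, SE 0.30), and Ndufaf8, which binds it, at 5.29, 6.76 and 9.28 and at 13.8, 17.1 and 18.6 CPM (1.21, SE 0.30). Ndufaf7 was at 19.4, 18.6 and 17.9 CPM and at 40.0, 59.1 and 60.0 CPM (1.51, SE 0.22). Ndufaf2, a relative of the accessory subunit Ndufa12, was at 7.81, 7.39 and 8.68 CPM and at 12.4, 23.1 and 20.1 CPM (1.22, SE 0.30). Ndufaf6, an early factor, was at 2.64, 3.51 and 5.07 CPM and at 10.4, 10.7 and 10.3 CPM (1.48, SE 0.32). None of these genes overlapped between the groups, and their adjusted p-values ran from 0.0113 to 0.0382 (edgeR). Over 30 other settings the call was lost in 15 for Ndufaf2, with log2 fold changes down to 0.45, in 12 for Ndufaf8 and in 10 for Ndufaf6. The calls of this class depended on more libraries: 4 of 8 were higher without vehicle library 1 (10.01% of all genes) and 3 of 8 without rebamipide library 3 (6.60%), against 7 of 7 core genes in each case, while edgeR called none of either class without vehicle or rebamipide library 2.

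Levels per gene length differed between the classes. In the deposited FPKM (counts scaled by gene length and library total), the median over the 37 subunits was 38.3, 42.5 and 50.7 in the vehicle libraries and 128, 138 and 158 in the rebamipide libraries. Over the 8 assembly factors it was 5.89, 6.10 and 6.45 and then 9.58, 13.1 and 12.6. A mean vehicle FPKM of at least 10 was reached by 35 of 37 subunits and 2 of 8 assembly factors. Among accessory subunits the highest mean vehicle FPKM was that of Ndufb3, at 111 ± 19.7 (SD, n = 3), with 416 ± 94.0 under rebamipide, and Ndufa1 (109 ± 28.8) and Ndufc2 (106 ± 7.00) were within its spread in vehicle. The lowest subunit after Ndufb2 was Ndufab1, at 4.45 ± 0.60 and 20.7 ± 4.26.

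The order of the 37 subunits by FPKM was largely kept between the groups (Pearson r = 0.957 and Spearman rho = 0.928 across genes, which share libraries and lengths and are not independent). Vehicle library 1 was the lowest of its group for 34 of the 37 subunits, rebamipide library 1 the lowest for 37 and rebamipide library 3 the highest for 36. Over all genes tested these shares were 43.0%, 46.5% and 27.2%, and vehicle library 1 also had the lowest mean of its group for 6 of the 7 marker lists.

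Differences between class means within a library do not depend on how libraries are scaled, apart from the added 0.5 CPM. The mean log2(CPM + 0.5) of the core minus that of the accessory subunits was 0.96, 0.98 and 0.97 in the vehicle libraries and 1.30, 1.39 and 1.34 in the rebamipide libraries. All subunits minus the assembly factors gave 2.10, 2.25 and 2.23, then 2.97, 2.86 and 3.08. Neither difference overlapped between the groups, with means of 1.34 ± 0.043 against 0.97 ± 0.005 and of 2.97 ± 0.11 against 2.19 ± 0.084 (SD, n = 3). How often differences between other gene lists separate in these libraries was not examined. The class differences are values over genes of unequal length, so that their change between groups can be read but not their level.

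**Figure D4:**
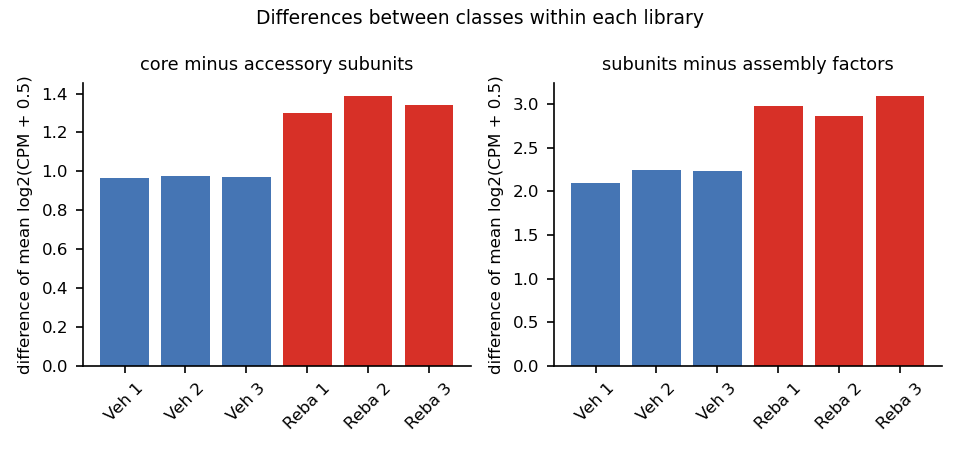
Difference between classes within each library, as mean log2(CPM + 0.5) of core minus accessory subunits (left) and of all 37 subunits minus the 8 assembly factors (right), with vehicle libraries in blue and rebamipide libraries in red. The left bars are 0.96 to 0.98 in vehicle and 1.30 to 1.39 with rebamipide, and the right bars 2.10 to 2.25 and 2.86 to 3.08.

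The 3 Nduf genes outside the classes did not behave alike. Ndufa4, now regarded as a subunit of cytochrome c oxidase (complex IV), was at 92.0, 141 and 190 CPM in vehicle and 521, 772 and 923 CPM with rebamipide (log2 fold change 2.39, SE 0.38, adjusted p = 0.0131). Its paralog Ndufa4l2, known as a gene induced in hypoxia, was at 26.8, 115 and 119 CPM in vehicle and 50.2, 39.0 and 20.9 CPM with rebamipide. Those groups overlapped, because vehicle library 1 was below 2 of the 3 rebamipide libraries, and the log2 fold change was -1.24 (SE 0.61, adjusted p = 0.179, edgeR). Ndufa4l2 was the only member with a negative fold change. Without vehicle library 1, DESeq2 and limma-voom called it lower and edgeR did not. Ndufb11b had 0 reads in all 6 libraries, which allows up to 0.0917 CPM before TMM scaling, for counting error only, and it was not tested.

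**Figure D5:**
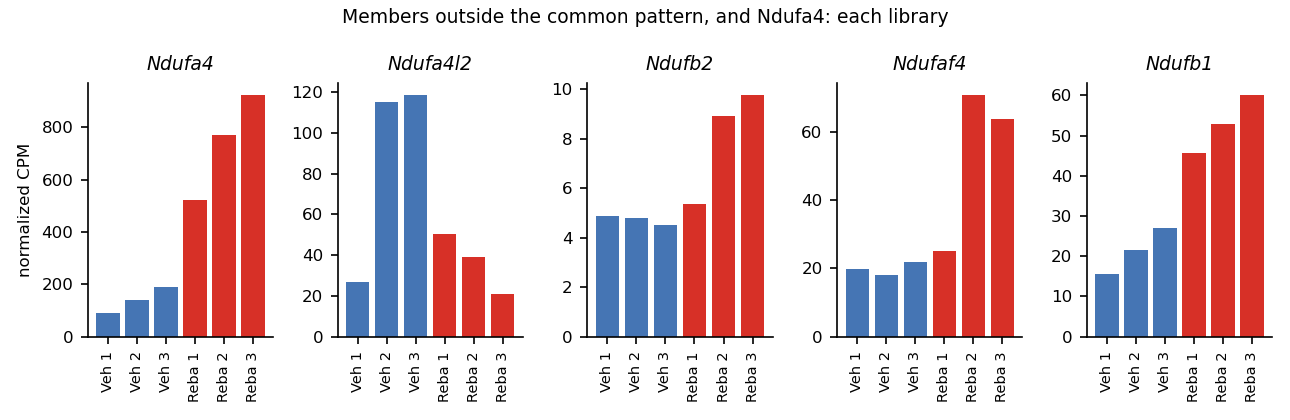
Level in normalized CPM of Ndufa4 and of the members that depart from the common pattern, each bar 1 library (vehicle blue, rebamipide red; each panel has its own axis from 0). Ndufa4l2 is highest in vehicle libraries 2 and 3, Ndufaf4 is near the vehicle level in rebamipide library 1, and Ndufb2 stays under 10 CPM.

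Core subunits of the membrane arm encoded in mitochondrial DNA do not carry the Nduf name and were read beside the list. All 7 were higher (median log2 fold change 2.37). All mitochondrially encoded genes together took 2.59%, 4.28% and 5.36% of the vehicle counts and 13.3%, 19.4% and 21.96% of the rebamipide counts. When edgeR was run with these genes left out, 44 of 47 Nduf members were higher, as with all genes kept. On the log2 scale the members' median was then 2.093, against 2.092. What this shift contributed to the fold changes of the 7 mitochondrially encoded subunits was not tested. The count of 7 subunits higher by edgeR fell to 1 without vehicle library 1 and to 0 without vehicle or rebamipide library 2. It fell to 5 without vehicle library 3 (11.4% of all genes) and to 4 without rebamipide library 3. Their medians in these fits ran from 2.12 to 2.70, and 5 were called with the fast muscle covariate or on log2(FPKM + 1). mt-Nd1, next to the quinone channel, was at 2222, 3808 and 5327 CPM in vehicle and 12080, 24120 and 22620 CPM with rebamipide (2.37, SE 0.55, adjusted p = 0.0321). mt-Nd2 (2.78, SE 0.53), mt-Nd4 (2.30, SE 0.52) and mt-Nd5 (2.36, SE 0.43), the proton-pumping subunits, and mt-Nd6 (2.21, SE 0.50) had fold changes near that of mt-Nd1.

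mt-Nd3 had the largest fold change of the 7 (4.09, SE 0.75), at 10.5, 11.2 and 14.9 CPM in vehicle and 57.7, 156 and 410 CPM with rebamipide, and its rebamipide libraries were spread widely. mt-Nd4l (3.41, SE 0.68) was at 0.98, 1.01 and 1.80 CPM and at 4.28, 22.6 and 13.4 CPM, and its span overlaps that of mt-Nd4. The mitochondrial minus the nuclear core mean was 1.12, 1.34 and 1.43 in vehicle and 0.89, 1.61 and 1.67 with rebamipide on the log2(CPM + 0.5) scale, so that the groups overlapped.

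Among 10 other assembly factors, 8 were higher (7 without rebamipide library 3), with a median log2 fold change of 1.72. Foxred1, which acts late in assembly, was at 26.4, 21.3 and 22.4 CPM in vehicle and 121, 190 and 220 CPM with rebamipide (2.92, SE 0.28, adjusted p = 0.00939). Nubpl, which serves the iron-sulfur clusters, had a log2 fold change of 2.12 (SE 0.27), and Ecsit, of the MCIA complex, one of 2.04 (SE 0.20). The MCIA partner Acad9, related to acyl-CoA dehydrogenases, was at 99.8, 95.0 and 86.8 CPM in vehicle and 68.5, 78.6 and 74.0 CPM with rebamipide (-0.35, SE 0.16, adjusted p = 0.152, edgeR). Its log2 fold change was below 0 in all 30 other settings (-0.97 to -0.28), and it was called lower in 4 of them, among them total counts as the scale (-0.97, adjusted p = 0.0132, edgeR) and log2(FPKM + 1) (-0.88, adjusted p = 0.0105, limma), the other 2 being DESeq2 without 1 library. The third partner, Tmem126b, was at 19.4, 24.6 and 25.3 CPM and at 27.5, 51.1 and 49.5 CPM (0.89, SE 0.29, adjusted p = 0.0755), and Dmac1, a distal membrane arm factor, was called higher (0.86, SE 0.19), a call lost in 11 of 30 other settings, among them rebamipide library 3 left out and total counts as the scale, with log2 fold changes down to 0.24.

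The neighbouring complexes give the scale of these changes. All 4 complex II genes were higher with a median log2 fold change of 3.08, all 9 of complex III with 2.71 and all 10 listed for complex IV with 2.57, against 2.21 over the 37 complex I subunits. Of 15 ATP synthase genes tested, 12 were higher, with a median of 1.79. Without rebamipide library 3 the counts were 4, 9, 10 and 10 in the same order. Within each library the mean log2(CPM + 0.5) of the complex I subunits lay below that of the complex III genes, with differences of -1.10, -1.12 and -1.14 in vehicle and -1.48, -1.50 and -1.50 with rebamipide. These values did not overlap between the groups, and how often unrelated gene lists separate in this way was not examined.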

How the data were processed

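Tissue described as full-thickness dorsal skin, from 3 vehicle-treated and 3 rebamipide-treated mice, was sequenced as poly-A RNA. The raw read counts and the FPKM values were deposited by the authors in 1 table. The submitters' processing notes name fastp 0.22.0, HISAT2 2.1.0, HTSeq 0.9.1 and the build GRCm39. The deposited FPKM follow from those counts, the table's gene length and the library total. Raw counts were fitted in R 4.3.3 with edgeR 4.0.16 (TMM, filterByExpr, quasi-likelihood test, Benjamini-Hochberg adjustment over all genes) on the group alone, which left 14875 genes. Standard errors of the edgeR fits were derived from the log2 fold change and its test statistic. DESeq2 1.42.0 and limma 3.58.1 (voom, and log2(FPKM + 1)) were alternatives. The fits were checked on simulated data before use. That check set changes up or down at random and had no shift in cell composition. It does not show how the calls hold under such a shift. Replicates differed by far more than sampling noise (79.1 to 713.6 per degree of freedom in a chi-square test). Depth was 32709801 to 39915276 counts per library, and 3 counts, the limit that a count of 0 allows, were 0.0752 to 0.0917 CPM before scaling. Promoters came from RefSeq (GRCm38.p6) and were not mixed with the positions of the table.

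The members, the gene and marker lists and the naming rule were chosen with earlier results of these data known. Named were the core subunits (1 member is not reported here), the 5 largest and 5 smallest changes among accessory subunits, all Ndufaf genes, all members outside the classes or not called, the 7 mitochondrially encoded subunits, and the 3 largest and 3 smallest changes among other assembly factors. Ndufb3, Ndufa1, Ndufc2, Ndufa13, Ndufb9 and the genes of the promoter matches were named with their values known. The thresholds of the study were added as an alternative after the data were seen. Same-numbered vehicle and rebamipide libraries did not deviate together (correlations of -0.07, -0.03 and -0.04), so replicate numbers were not taken as pairs. The authors' annotation columns were used for the mitochondrion term only.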

Additional observations from a re-analysis of the deposited data

How the results depend on the processing

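No named gene or class median changed sign under the alternatives run, but the balance of all called genes did. The counts of members called under DESeq2, limma-voom, other scalings, other filters, the muscle covariates and log2(FPKM + 1) ran from 40 to 45 higher. The share of all genes higher was 18.3% under DESeq2, 14.4% under limma-voom, 13.5% and 13.2% with RLE and upper-quartile factors, 8.46% with total counts alone, 14.0% without the mitochondrially encoded genes, 10.7% with no filter, 17.02% with at least 10 counts in every library, 9.85% and 12.1% with the fast and slow muscle covariates and 9.42% on log2(FPKM + 1). With total counts alone as the scale, the median log2 fold changes were 1.46 for the members, 1.77 for core, 1.49 for accessory and 0.87 for assembly genes, and 4 assembly factors were higher; the median of all genes moved from -0.18 to -0.78, so that the members stood 2.24 above it, against 2.27 under TMM. The split of all called genes moved from 2093 higher and 968 lower to 1258 and 3752. On log2(FPKM + 1) the medians were 1.47, 1.71, 1.49 and 0.76, a scale that understates low genes and has no TMM factor, with 1401 genes higher and 4809 lower. With the slow muscle covariate the medians were 2.49 (members), 2.82 (core) and 2.50 (accessory); the cause was not tested. A replicate block gave 41 members and 4 assembly factors higher, and 1432 genes higher (9.63%) and 855 lower in all; no same-numbered pair correlated above 0.1.

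Leaving out each library in turn, over edgeR, DESeq2 and limma-voom, gave 0 to 46 members higher and 0 to 1 lower (Ndufa4l2), 0 to 7 core, 0 to 30 accessory and 0 to 8 assembly genes higher. The 0 came from edgeR without vehicle or rebamipide library 2, where limma-voom called 18 members, 12 of them accessory, and 0 assembly genes. Over all genes edgeR then called 0 (4116 at an unadjusted p under 0.05) and 1 (4062). With 3 libraries a group, every call of a member, whatever its adjusted p, depends on vehicle library 2 and rebamipide library 2 in edgeR (without vehicle 2 the smallest over the members was 0.0747), while the medians of the members stayed between 1.87 and 2.33. Library composition and treatment cannot be told apart in this design.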
